A study of Homo sapiens with 6 samples.

Results

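Chemokines are small secreted proteins that draw leukocytes towards the cells that make them. The 10 chemokine genes described here are CXCL1, CXCL2, CXCL3, CXCL5, CXCL8, CXCL10, CXCL11, CCL2, CCL20 and CX3CL1, out of 19775 genes that had their own probe set on the array. Every probe set annotated to exactly 1 gene symbol was taken where that symbol was one of the 10, which gave 17 probe sets. RNA came from the bile duct carcinoma cell lines HuccT1 (spelled HuCCT1 in the study) and KKU-100, each treated with solvent, with a low dose or with a high dose of regorafenib, an inhibitor of several kinases that include VEGF receptors and RAF. The labels give the doses as 1 uM and 10 uM, whereas the study's text names lower ones, so the doses are referred to as low and high. For all cells the labels describe stable transduction and selection with puromycin but name no construct. Whether solvent and treated cells carried the same one is therefore not known. Each line and treatment had 1 array, 6 in all, and the RNA of cell lines in culture comes without the leukocytes on which chemokines act.

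The CXC chemokines with the amino acids glutamate, leucine and arginine before the first cysteines, called ELR chemokines, bind CXCR1 and CXCR2 and attract neutrophils. CXCL10 and CXCL11 lack these amino acids, are induced by interferons and attract activated T cells and natural killer cells through CXCR3. CCL2 recruits monocytes through CCR2, CCL20 recruits CCR6-bearing T cells and immature dendritic cells, and CX3CL1 is made as a membrane-bound protein that ADAM10 and ADAM17 release from the cell surface. NF-kB drives the transcription of most of these genes after stimulation by TNF or IL-1, and bile duct epithelium is a known source of several of them.

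The 5 ELR genes lie together on chromosome 4 of GRCh38.p14, from CXCL8 at chr4:73740569-73743716 to CXCL2 at chr4:74097040-74099195. CXCL1 (chr4:73869393-73871308), CXCL5 (chr4:73995642-73998677) and CXCL3 (chr4:74036589-74038689) lie between them, whereas CXCL10 (chr4:76021118-76023497) and CXCL11 (chr4:76033682-76036070) form a second group farther along the chromosome. CCL20 is at chr2:227813842-227817556, CCL2 at chr17:34255285-34257203 and CX3CL1 at chr16:57372490-57385044. Promoters of 8 of the 10 genes were available from RefSeq, and CCL2 and CX3CL1 were not among them. The last 120 bases before the start of the ELR genes are shown because 3 of these promoters are nearly copies of each other, with capitals marking matches to the NF-kB motif or, in CXCL8, to its core GGAATTTCC. They cover chr4:73869273-73869392 on the plus strand for CXCL1, chr4:74099196-74099315 on the minus strand for CXCL2, chr4:74038690-74038809 on the minus strand for CXCL3, chr4:73998678-73998797 on the minus strand for CXCL5 and chr4:73740449-73740568 on the plus strand for CXCL8.
CXCL1: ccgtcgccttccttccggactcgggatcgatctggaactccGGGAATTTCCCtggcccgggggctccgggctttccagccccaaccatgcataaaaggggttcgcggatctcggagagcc
CXCL2: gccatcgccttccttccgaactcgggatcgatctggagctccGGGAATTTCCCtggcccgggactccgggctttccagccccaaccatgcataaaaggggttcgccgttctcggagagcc
CXCL3: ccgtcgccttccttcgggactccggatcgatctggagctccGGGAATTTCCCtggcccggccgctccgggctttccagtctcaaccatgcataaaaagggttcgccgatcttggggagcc
CXCL5: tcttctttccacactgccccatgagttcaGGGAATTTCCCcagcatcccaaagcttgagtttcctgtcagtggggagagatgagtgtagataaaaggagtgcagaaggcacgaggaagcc
CXCL8: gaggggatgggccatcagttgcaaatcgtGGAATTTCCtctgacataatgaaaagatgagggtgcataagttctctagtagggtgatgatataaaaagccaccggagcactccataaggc
Without gaps, CXCL1 and CXCL3 had the same base at 109 of the 120 positions. CXCL1 and CXCL2 shared an unbroken run of 42 bases. In CXCL1 and CXCL3 the marked match spanned the bases from 79 to 69 before the start, in CXCL2 those from 78 to 68 and in CXCL5 those from 91 to 81, and in each of these 4 genes it reads as a match on either strand.

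For CXCL10 (chr4:76023498-76023747, minus strand) and CXCL11 (chr4:76036071-76036320, minus strand) the 250 bases before the start are shown, since these genes followed the dose in both lines. Capitals mark the NF-kB motif and, in CXCL10, also GAAAGTGAA, a match to the core of the interferon-stimulated response element (ISRE). CCL20 (chr2:227813722-227813841, plus strand, 120 bases) is shown with its NF-kB match in capitals, because its arrays in KKU-100 had the same order as those of CXCL1, CXCL2 and CXCL3.
CXCL10: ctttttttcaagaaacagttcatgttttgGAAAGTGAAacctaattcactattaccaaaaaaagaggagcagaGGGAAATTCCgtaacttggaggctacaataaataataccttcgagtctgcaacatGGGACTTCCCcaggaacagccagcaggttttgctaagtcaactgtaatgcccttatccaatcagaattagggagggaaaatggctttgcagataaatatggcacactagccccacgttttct
CXCL11: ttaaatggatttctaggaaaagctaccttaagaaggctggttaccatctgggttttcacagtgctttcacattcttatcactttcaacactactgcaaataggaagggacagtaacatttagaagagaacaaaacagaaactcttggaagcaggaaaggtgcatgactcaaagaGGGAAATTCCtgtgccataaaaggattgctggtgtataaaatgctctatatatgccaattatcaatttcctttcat
CCL20: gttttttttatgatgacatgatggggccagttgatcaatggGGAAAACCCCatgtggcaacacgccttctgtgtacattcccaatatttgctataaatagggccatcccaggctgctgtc
Of the 8 promoters, 7 held the NF-kB motif on one strand or the other within 250 bases before the start, against 5.21% of 35116 promoters in the same window. The core GGAATTTCC, which overlaps that motif and was chosen after the sequences were seen, occurred on either strand in the 7 CXC promoters, against 0.413% of all promoters. The ISRE core GAAANNGAA was present in 3 promoters (CXCL2, CXCL3 and CXCL10; 6.88% of all), where the CXCL2 and CXCL3 matches lie upstream of the bases shown. The AP-1 motif TGANTCA was present in CXCL8 and CXCL11 (6.57% of all). The C/EBP motif TTNNGNAAT was present in CXCL10 alone (9.85% of all), and 1 of its 2 matches overlaps an NF-kB match. Near-identical promoters such as those of CXCL1, CXCL2 and CXCL3 are not separate observations, and a match in a sequence does not show that a factor binds there.

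The signals of the 6 arrays were on 1 scale, with medians from 4.85 to 4.87 on the log2 scale. The keratins KRT7, KRT8 and KRT18 of biliary epithelium passed the level filter in both lines. KRT19 and EPCAM, also epithelial, had log2 signals of 13.14 and 12.65 in HuccT1 with solvent but 3.24 and 3.45 in KKU-100, below the level filter, and the collagen gene COL3A1 was at 3.11 in HuccT1 and 9.07 in KKU-100. Of 6 leukocyte genes with a probe set, CD3E, CD3D and CD14 passed the filter in HuccT1 and CD3E and CD3D in KKU-100, with log2 signals from 4.35 to 5.48 over all arrays, and PTPRC, which all leukocytes carry, stayed between 3.19 and 3.39. A gene passed the level filter in a line if the mean log2 signal of its 3 arrays reached the median of all probe sets, 4.86 in HuccT1 and 4.85 in KKU-100. Where a gene had several probe sets, the one of highest mean signal stands for it. On arrays a signal depends on the probe as well as on the transcript, so levels are compared only within a probe set.

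All 5 neutrophil-attracting chemokines were higher in HuccT1 than in KKU-100, by a log2 difference that was smallest for CXCL8 (0.82 with solvent), and the T cell-attracting pair was higher in KKU-100. For CXCL1 the log2 signal in HuccT1 was 13.32 with solvent, 13.27 after the low dose and 13.14 after the high dose. In KKU-100 the values were 10.04, 9.26 and 10.62 in the same order. All HuccT1 arrays were above all KKU-100 arrays for this gene. How many of all genes have no overlap between the lines was not counted, but differences between the lines were common, as given with the limma test below.

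CXCL2 stood at 12.70, 12.50 and 12.98 in HuccT1, against 9.13, 8.93 and 11.38 in KKU-100, in the order solvent, low dose and high dose. CXCL3, its close relative, stood at 12.50, 12.48 and 13.05 in HuccT1, against 6.32, 6.12 and 10.21 in KKU-100. Neither gene overlapped between the lines, but the high-dose array of KKU-100 came nearer to HuccT1 than the other KKU-100 arrays. The difference KKU-100 minus HuccT1 for CXCL3 was -6.18 with solvent and -2.83 at the high dose on the log2 scale.

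CXCL5, an epithelial-derived neutrophil attractant, was the most line-bound member. Its log2 signals were 13.99, 13.94 and 13.73 in HuccT1, against 2.88, 3.05 and 2.88 in KKU-100, where it did not pass the level filter. The other CXCL5 probe sets gave 13.56 and 10.00 in HuccT1 with solvent against 2.81 and 2.23 in KKU-100. All 3 probe sets thus placed every HuccT1 array above every KKU-100 array. CXCL8 (interleukin-8), the principal neutrophil attractant, was at 12.83, 12.90 and 13.04 in HuccT1, against 12.01, 9.13 and 12.02 in KKU-100. Here the lines with solvent lay within 0.82 of each other on the log2 scale, and the low-dose array of KKU-100 stood apart from the other 5. The second CXCL8 probe set gave 12.42, 12.53 and 12.61 in HuccT1, against 10.70, 7.56 and 10.17 in KKU-100, with the low dose again the lowest array of KKU-100. In HuccT1 the 5 ELR genes lay between the 99.1 and 99.9 percentile of all probe sets of an array, near the upper end of the measured range. Whether signals so near the upper end could still rise in proportion to the RNA was not tested.

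CXCL10 had log2 signals of 4.80, 5.52 and 5.90 in HuccT1, against 6.32, 7.28 and 8.29 in KKU-100, again from solvent to low to high dose. CXCL11 had 2.66, 3.57 and 5.52 in HuccT1, where it did not pass the level filter, and 7.20, 7.75 and 8.21 in KKU-100. For both genes the order of the arrays was solvent, low dose, high dose in each line, and all KKU-100 arrays were above all HuccT1 arrays. The share of all genes with this order was not counted. The second CXCL11 probe set had the same order, with 2.96, 3.63 and 4.66 in HuccT1, against 6.34, 6.86 and 7.51 in KKU-100.

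CCL2 was at 11.20, 12.62 and 11.66 in HuccT1, against 8.76, 9.44 and 9.30 in KKU-100. Its highest array was the low dose in each line. CCL20 was at 12.43, 13.08 and 12.98 in HuccT1, against 6.49, 5.62 and 8.87 in KKU-100, so that both lines kept apart while the low dose was the highest array of the one and the lowest of the other. CX3CL1 did not pass the level filter in either line, with log2 signals from 4.74 to 4.79 in HuccT1 and from 4.53 to 4.55 in KKU-100. Its lines had no overlap either, so a lack of overlap alone sets no member apart.

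**Figure D1:**
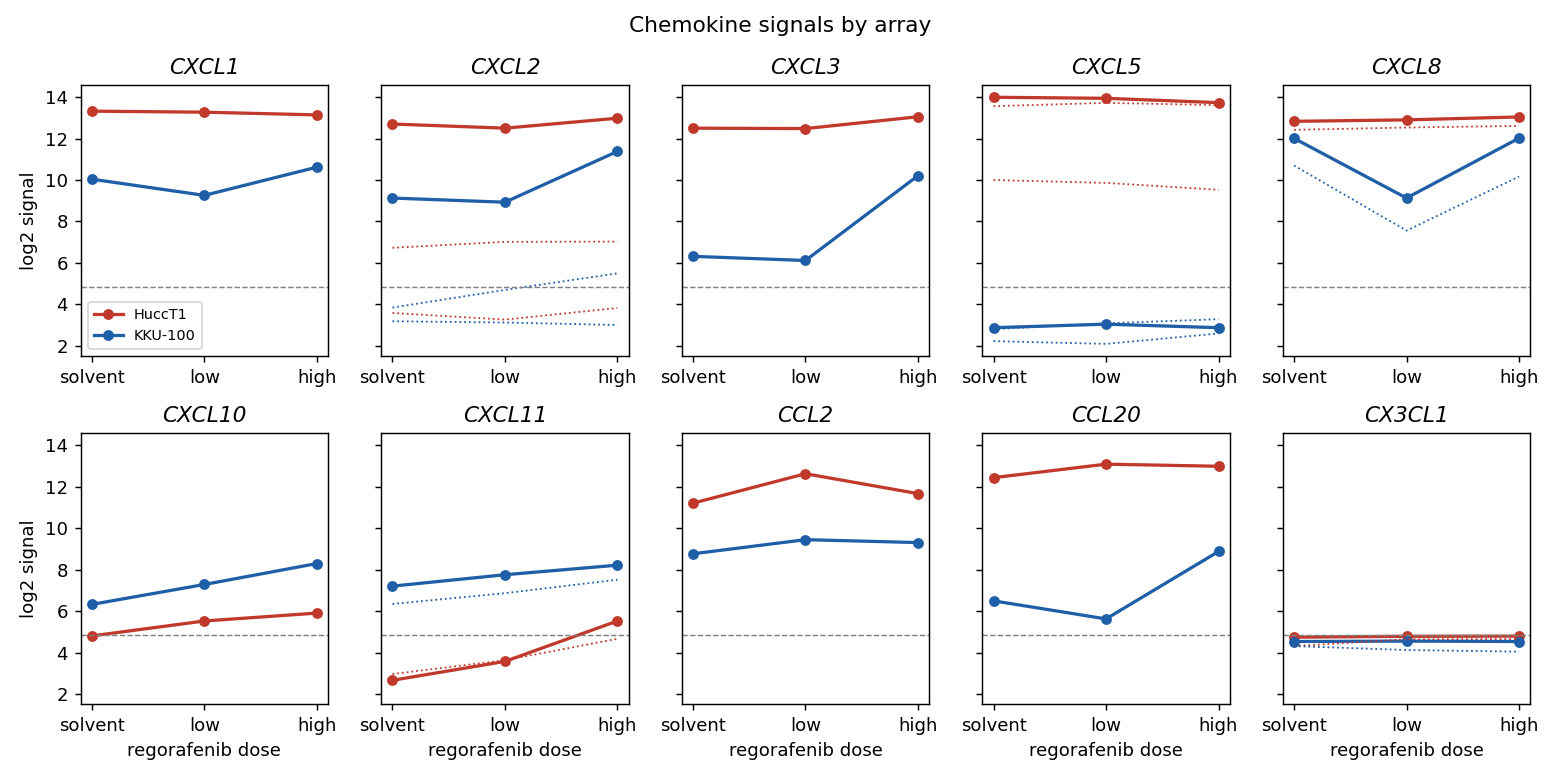
Log2 signal of each chemokine (y axis) with solvent, low dose and high dose of regorafenib (x axis) in HuccT1 (red) and KKU-100 (blue), 1 array per point. Solid lines with points show the probe set that represents the gene, dotted lines its other probe sets, and the dashed line the level filter of 4.85. CXCL5 is at 13.99 and 2.88 with solvent in HuccT1 and KKU-100, and CXCL3 in KKU-100 climbs from 6.32 to 10.21.

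The level of the lines over the treatments was tested with limma, with treatment in the fit and 1 array per line and treatment. The adjusted p thus measures the line difference against its variation between the treatments, which includes noise of single arrays. A response to regorafenib in 1 line only widens that variation. The labels do not say that these arrays come from separate cultures, so the spread between cultures is not measured. Of the 27307 probe sets tested, 26.1% were higher and 25.0% lower in KKU-100 at an adjusted p under 0.05, so a difference between the lines was common. Of the 10 chemokines, 9 were tested and all 9 were called, 7 lower and 2 higher in KKU-100, and CX3CL1 was below the level filter. CXCL5 and CXCL11 passed that filter through 1 line only, so that a difference was built into their being tested and their calls support nothing. Of the other 7, 6 were lower in KKU-100 and CXCL10 was higher.

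CXCL5 was below the level filter in KKU-100, so only a bound is given, set against that filter. On this scale its mean in HuccT1 was at least 525-fold higher, or 9.04 on the log2 scale. CCL20 differed by -5.84 (SE 0.60, limma adjusted p = 0.000936) and CXCL3 by -5.13 (SE 0.70, limma adjusted p = 0.00256). For CXCL1 the difference was -3.27 (SE 0.27), for CXCL2 -2.92 (SE 0.40) and for CCL2 -2.66 (SE 0.18), with limma adjusted p of 0.000449, 0.00265 and 0.000239. These genes attract neutrophils, monocytes or CCR6-bearing cells, and all were lower in KKU-100. Leaving out 1 array moved the CXCL3 difference between -6.27 (without the high-dose array of either line) and -4.51 (without the low-dose array of either line). The same omissions moved CCL20 between -6.70 and -5.03, and CXCL2 reached -3.57 without either high-dose array. All 3 kept an adjusted p under 0.05.

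CXCL8 differed by -1.87 (SE 0.58, limma adjusted p = 0.0424), and its second probe set by -3.04 (limma adjusted p = 0.00945). The CXCL8 difference lost its call without the high-dose array of HuccT1 (adjusted p = 0.0588) or of KKU-100 (adjusted p = 0.058), and was -0.92 without the low-dose array of either line. CXCL10 was higher in KKU-100 by 1.89 (SE 0.20, limma adjusted p = 0.00101). For CXCL11, below the level filter in HuccT1, the mean in KKU-100 was at least 7.26-fold higher than that filter. Whether KRT19, EPCAM and COL3A1, which also separated the lines, have a part in the difference was not tested.

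**Figure D2:**
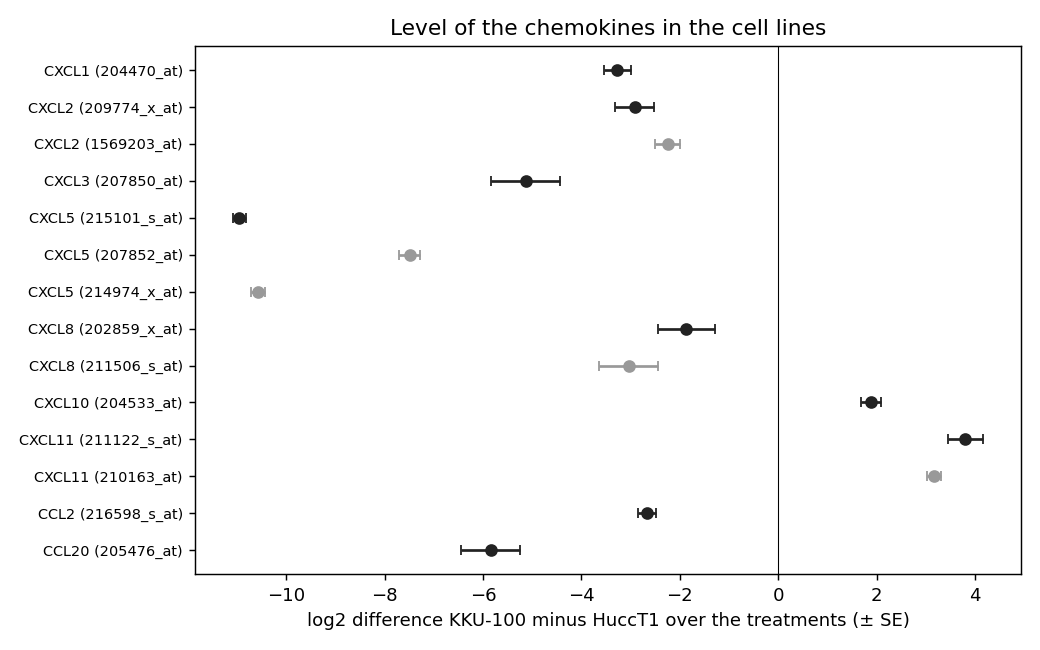
Log2 difference KKU-100 minus HuccT1 over the 3 treatments from limma (x axis) for each tested chemokine probe set (y axis), with bars of 1 SE. Black points are the probe sets that represent a gene and grey points the others, and those of CXCL10 and CXCL11 alone lie to the right of 0, with 1.89 for CXCL10. CXCL5 in KKU-100 and CXCL11 in HuccT1 were below the level filter, so the size of their differences is not read.

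The changes with regorafenib rest on 1 array against 1, with both doses of a line read against the same solvent array, so they have no replicate check and carry no p. A gene was called higher or lower past 1.5-fold, which is 0.585 on the log2 scale, the cutoff that the study used. In each line 8 of the 10 chemokines passed the level filter and could be called. The members called differed between lines and doses. CXCL10 was called in all 4 comparisons, but in HuccT1 it passed the level filter only through its treated arrays.

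In HuccT1 at the low dose, CCL2, CCL20 and CXCL10 rose, 3 of the 8, where 3.68% of all 12789 genes rose past 1.5-fold. None of the 8 fell, against 3.32% of all genes. CCL2 rose 2.67-fold, CXCL10 1.66-fold and CCL20 1.57-fold. At the high dose only CXCL10 rose, 2.15-fold, against 8.23% of all genes, and none fell, against 6.44%. CXCL10 with solvent, at 4.80, was itself just under the level filter of this line, and with a filter at the 60th percentile it was not counted, which left 0 chemokines higher with the high dose. CXCL3 and CCL20 came near the cutoff at the high dose, with log2 fold changes of 0.54 and 0.55. CXCL11, not counted because it was below the level filter, had log2 fold changes of 0.91 and 2.86 over a solvent signal of 2.66, and of 0.32 and 2.28 with signals floored at the 20th percentile. The 5 ELR chemokines stayed within -0.20 and 0.07 at the low dose and within -0.25 and 0.54 at the high dose.

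In KKU-100 at the low dose CCL2 and CXCL10 rose, 2 of the 8, against 9.75% of 12694 genes, and CXCL1, CXCL8 and CCL20 fell, 3 of the 8, against 7.32% of all genes. CXCL8 was 7.32-fold lower, and its second probe set 8.80-fold lower. CXCL1 was 1.71-fold lower and CCL20 1.82-fold lower. CXCL10 rose 1.95-fold and CCL2 1.60-fold. CXCL2 and CXCL3 each had a log2 fold change of -0.20, within the cutoff, and for CXCL2 a second probe set, below the level filter in this line, gave 0.85.

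In KKU-100 given the high dose, 6 of the 8 chemokines rose, against 9.44% of all genes, and none fell, against 4.86%. CXCL3 rose 14.9-fold, CCL20 5.22-fold and CXCL2 4.75-fold. CXCL10 rose 3.93-fold and CXCL11 2.02-fold. CXCL1 rose 1.5-fold, just past the cutoff at a log2 fold change of 0.59, and CXCL8 had a log2 fold change of 0.02 by one probe set and of -0.53 by the other, both within the cutoff. CCL2 was at 0.54. From the low to the high dose the log2 signal in KKU-100 went up by 4.09 for CXCL3, 3.25 for CCL20, 2.89 for CXCL8 and 2.45 for CXCL2. CXCL1, CXCL2 and CXCL3 are close relatives in sequence, and whether RNA of one contributes to the signal of another was not tested.

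**Figure D3:**
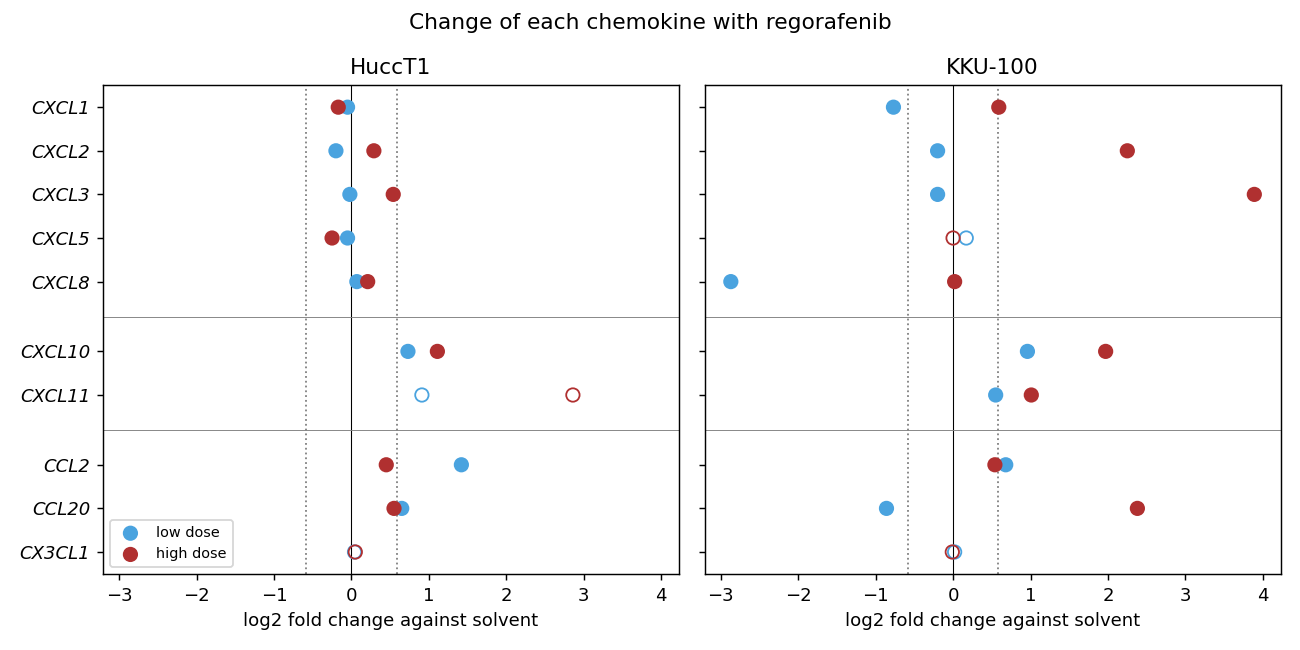
Log2 fold change against the solvent array of the same line (x axis) for each chemokine (y axis), at the low dose (blue) and the high dose (red). Genes under the level filter of the line are open circles, and the dotted lines stand at 1.5-fold. The ELR genes at the top lie within the dotted lines in HuccT1 and spread from -2.87 (CXCL8, low dose) to 3.89 (CXCL3, high dose) in KKU-100.

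Set side by side, the T cell-attracting pair had higher log2 fold changes than every ELR chemokine in 3 of the 4 comparisons. This count covers all 5 ELR genes and, of the CXCR3 ligands, CXCL10 and CXCL11 only, whether or not they passed the filter. The count was 2 of 4 with the median over probe sets or without _x_at and _s_at probe sets, where CXCL2 in KKU-100 had 0.85 with the low dose. In HuccT1 the median of the CXCR3 ligands was 0.82 for the low and 1.98 for the high dose, against -0.05 and 0.21 for the ELR genes. These ligand medians include CXCL11 below the level filter, and with signals floored at the 20th percentile they were 0.53 and 1.69. In KKU-100 at the low dose the medians were 0.75 and -0.20. In KKU-100 given the high dose they were 1.49 and 0.59, and CXCL2 and CXCL3 exceeded both ligands, so that 3 of the 5 ELR genes lay below them. CCL2, CCL20 and CX3CL1 together had medians of 0.65 and 0.45 in HuccT1, against 0.02 and 0.54 in KKU-100, from low to high dose. Without CX3CL1, below the level filter, they were 1.03 and 0.50 in HuccT1, against -0.09 and 1.46 in KKU-100. Over all genes tested the median was 0.02 in HuccT1 and 0.06 in KKU-100 at both doses. Members are not replicates, so no test was made of the contrast between the classes.

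A change common to both lines was tested with limma on the 6 arrays with the line in the fit. At an adjusted p under 0.05 it called 0% of the 27307 probe sets for the low dose, 0% for the high dose and 0% for high against low dose, and so none of the chemokines. At an unadjusted p under 0.05 it gave 1289 higher and 1639 lower probe sets for the low dose, 2261 and 1820 for the high dose, and 1730 and 928 for high against low. For the high dose against solvent, CXCL10 was estimated at 1.54 (SE 0.24, limma adjusted p = 0.147). For the same contrast CXCL11 was estimated at 1.94 (SE 0.44, limma adjusted p = 0.188), and its second probe set at 1.44 (SE 0.17, limma adjusted p = 0.122). Without the high-dose array of HuccT1 the CXCL11 estimate was 1.10, and without that of KKU-100 it was 2.77. Both genes were higher than solvent in 2 of 2 lines. In HuccT1, however, CXCL11 was below the level filter, and CXCL10 passed it only through its treated arrays. With signals floored at the 20th percentile the CXCL11 estimate was 1.65. CCL2 at the low dose was estimated at 1.05 (SE 0.22, limma adjusted p = 0.394), also higher in both lines. For CXCL8 at the low dose and CXCL3 at the high dose, which differed between the lines, the standard errors were 0.71 and 0.86. The CXCL10 estimate passed the threshold without the HuccT1 solvent array, at 1.82 (limma adjusted p = 0.0428), in a fit with 1 residual degree of freedom that called 423 probe sets, but not without the KKU-100 solvent array, at 1.27 (limma adjusted p = 0.0706). With 1 array per line and dose, a difference in response between the lines could not be tested.

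Of 32 further chemokine genes, 28 had a probe set, and 8 passed the level filter in HuccT1 and 7 in KKU-100. These genes, the receptors and the regulators that follow are named by the rule given with the methods or, where a count was 5 or fewer, after their values were seen. CXCL6 and PPBP, ELR chemokines of the same cluster (CXCL6 at chr4:73836678-73838760, PPBP at chr4:73986439-73988190), had log2 signals of 11.79 and 11.17 in HuccT1 with solvent and of 2.91 and 3.54 in KKU-100. Like CXCL5, both were below the level filter in KKU-100, so the size of the difference is not read. PF4, in the same cluster (chr4:73980811-73982124), was also higher in HuccT1, at 8.24 with solvent against 5.30 in KKU-100. Past 1.5-fold at the low dose, 3.68% of all genes rose and 3.32% fell in HuccT1, against 9.75% and 7.32% in KKU-100. At the high dose the shares were 8.23% and 6.44% in HuccT1, against 9.44% and 4.86% in KKU-100. The counts in this list and in those that follow are to be read beside these shares. At the low dose in HuccT1 CXCL6 (0.59) and the mucosal chemokine CCL28 (1.11) rose and none fell, and at the high dose CCL5 (2.58) rose while PPBP (-0.81) and CCL28 (-0.96) fell, all as log2 fold changes. In KKU-100 none was called at the low dose, and CCL5 (1.89) and CCL4 (1.5) rose at the high dose. CCL5 went from a log2 signal of 4.34 with solvent to 4.74 and 6.92 in HuccT1, and from 8.83 to 8.60 and 10.72 in KKU-100, so that the high-dose array was the highest of each line. In HuccT1 it was below the level filter with solvent and with the low dose and passed through the high-dose array alone, as did CCL4 in KKU-100, which had 4.57, 4.34 and 6.07. The limma adjusted p of CCL5 at the high dose was 0.117.

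The receptors were mostly not above the level filter. Of 20 with a probe set, 2 passed in HuccT1 (CXCR1 and CXCR4) and 4 in KKU-100 (CXCR1, CXCR4, CCR4 and ACKR3). CXCR2, CXCR3, CCR2, CCR6 and CX3CR1, each a receptor of chemokines described here, did not pass in either line. ACKR3, a scavenging receptor that binds CXCL11 and CXCL12, rose in KKU-100 by 1.70 (low dose) and 1.60 (high dose) on the log2 scale, over a solvent signal of 3.96 that was below the level filter. CXCR4, the signalling receptor of CXCL12, fell in HuccT1 at the high dose (-1.29) and rose in KKU-100 with the low dose (1.47).

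Of 13 NF-kB regulators tested, 2 rose with the low dose and 7 with the high dose in HuccT1, and none fell. Of all genes there, 3.68% and 8.23% rose, and 3.32% and 6.44% fell. KKU-100 had 2 that rose beside 5 that fell with the low dose, but with the high dose 4 that rose and none that fell. Of all genes in KKU-100, 9.75% rose and 7.32% fell with the low dose, and 9.44% and 4.86% with the high dose. The list medians were 0.11 and 0.60 in HuccT1, against -0.32 and 0.29 in KKU-100. NFKBIA, the inhibitor that NF-kB itself induces, rose in all 4 comparisons, by 0.79 and 1.14 in HuccT1 and by 0.64 and 1.03 in KKU-100 on the log2 scale, with a limma adjusted p of 0.394 for the low dose and 0.105 for the high one. NFKBIE, another inhibitor, rose by 0.66 and 0.89 in HuccT1, but KKU-100 showed a fall (-1.18) with the low dose and a value of 0.19 with the high one. IKBKG, a subunit of the kinase that acts on these inhibitors, rose in KKU-100 by 0.59 and 0.68. Those lower with the low dose in KKU-100 were NFKB1, RELB, REL, NFKBIE and NFKBIZ, chosen here after their values were seen. That array was also the lowest of KKU-100 for CXCL1, CXCL2, CXCL3, CXCL8 and CCL20. For CXCL2 and CXCL3 it was lower than solvent by only -0.20 on the log2 scale. A second CXCL2 probe set, below the level filter, was instead lowest with solvent (3.85, against 4.70 with the low dose). Whether these chemokines and the NF-kB regulators moved together was not tested.

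Of the interferon axis, 9 genes were tested in HuccT1, and 3 rose and none fell with either dose. In KKU-100 10 were tested, and 1 was higher with 1 lower after the low dose, against 2 higher with none lower after the high dose. The low-dose counts in KKU-100 are near the shares of all genes, 9.75% higher and 7.32% lower. With the high dose these shares were 9.44% and 4.86%. In HuccT1 they were 3.68% and 3.32% with the low dose, and 8.23% and 6.44% with the high dose. The medians were 0.24 and 0.25 in HuccT1, against 0.13 and 0.12 in KKU-100. IRF1, a transcription factor induced by interferon gamma that acts on the CXCL10 promoter, had log2 signals of 7.92, 8.84 and 9.83 in HuccT1, against 9.08, 9.23 and 10.75 in KKU-100, from solvent to high dose. These were the same orders of arrays as for CXCL10. It rose in HuccT1 at both doses, by 0.92 and 1.91, and in KKU-100 at the high dose by 1.67, with a limma adjusted p of 0.122 at that dose. IFNGR1, a chain of the interferon gamma receptor, rose in HuccT1 by 0.74 and 0.68, and in KKU-100 it rose by 0.61 with the low dose and was at 0.55 with the high one. IFNB1 (interferon beta) was below the level filter in HuccT1 and rose in KKU-100 given the high dose, by 0.61.

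**Figure D4:**
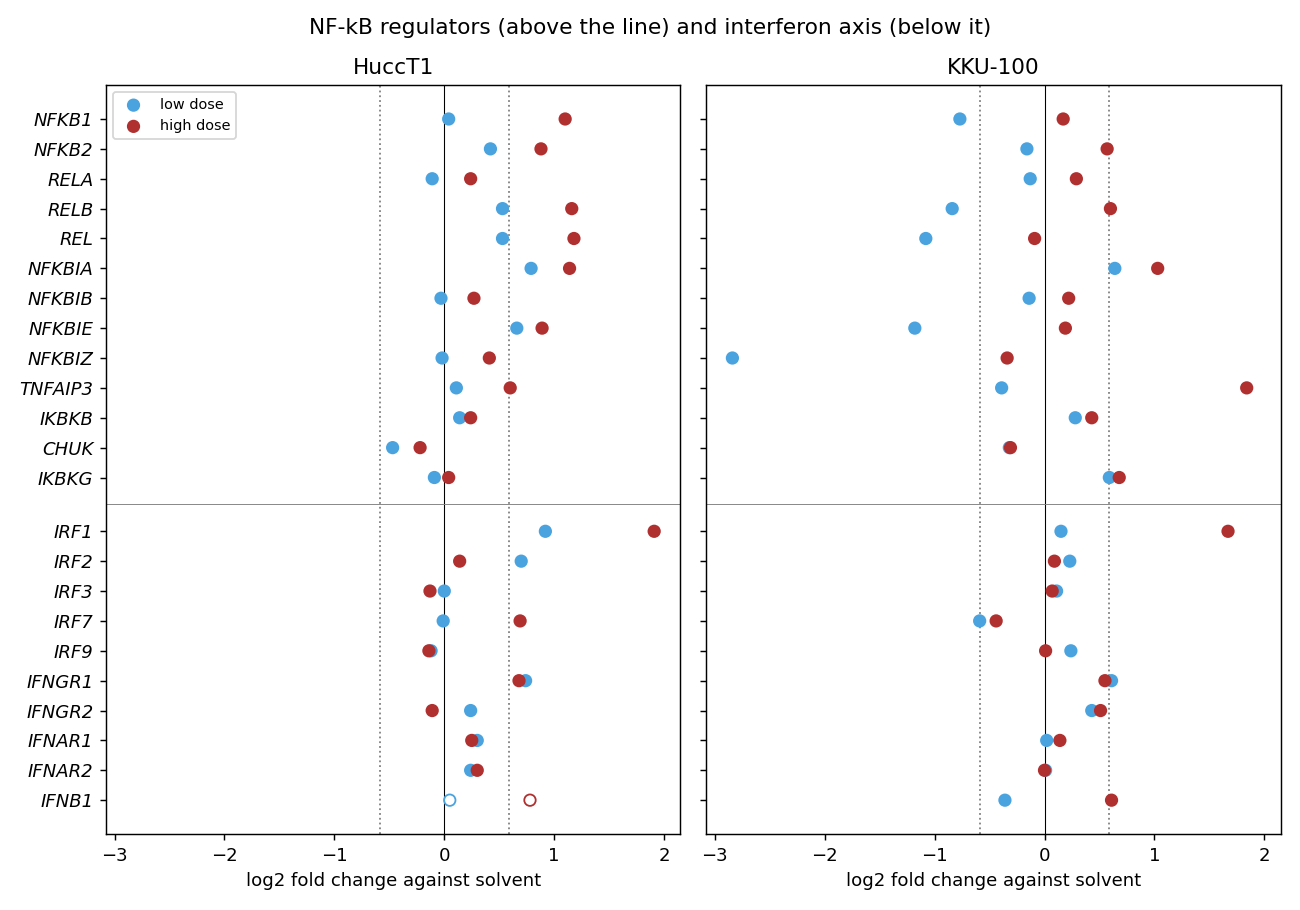
Log2 fold change against the solvent array of the same line (x axis) for 13 NF-kB regulators and 10 genes of the interferon axis (y axis), at the low dose (blue) and the high dose (red). Genes under the level filter are open circles, and the dotted lines stand at 1.5-fold. NFKBIZ (-2.84) and NFKBIE (-1.18) lie to the left for the low dose in KKU-100, whereas IRF1 is at 1.91 and 1.67 at the high dose.

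AP-1 and C/EBP factors, which bind many chemokine promoters, moved in both directions. Of 9 tested in HuccT1, none was higher but 4 were lower after the low dose, against 1 higher with 2 lower after the high dose. Of 10 tested in KKU-100, 2 were higher after either dose, whereas 5 were lower after the low dose but 4 after the high dose. Their medians were -0.48 and -0.17 in HuccT1, against -0.67 and -0.14 in KKU-100. Of all genes in HuccT1, 3.68% rose and 3.32% fell with the low dose, and 8.23% and 6.44% with the high dose. In KKU-100 the shares were 9.75% and 7.32% with the low dose, and 9.44% and 4.86% with the high dose. FOSL1, an AP-1 subunit that follows ERK activity, fell in all 4 comparisons, with log2 fold changes of -1.36 and -1.5 in HuccT1 beside -2.0 and -1.5 in KKU-100. FOS (-4.92 and -4.98), FOSB (-2.41 and -2.50) and JUNB (-1.52 and -1.64) fell in KKU-100 with both doses. FOSB passed the level filter there only through its solvent array, at 7.16 against 4.75 and 4.67 with the doses. FOS fell from 9.87 to just above that filter, at 4.95 and 4.89.

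Of the inducing cytokines, 6 were tested in each line. The shares of all genes that rose and fell in HuccT1 were 3.68% and 3.32% (low dose) and 8.23% and 6.44% (high dose). In KKU-100 they were 9.75% and 7.32% (low dose) and 9.44% and 4.86% (high dose). In HuccT1 3 rose while 2 fell with the low dose, and 2 rose while 1 fell with the high dose, with medians of 0.47 and -0.18. In KKU-100 1 fell with the low dose but 2 rose with the high dose, with medians of -0.12 and 0.26. In HuccT1 TNF rose by 0.99 and 1.39, and LTB, a TNF family member that signals to the alternative NF-kB pathway, by 2.35 and 0.79. IL1B fell there, with -1.28 and -2.03. Of 6 factors that bind chemokine transcripts and set their decay, none was called after the low dose but 2 were lower after the high dose in HuccT1, with medians of -0.09 and -0.19. In KKU-100 HNRNPD rose and ZFP36 fell with the low dose, and ZFP36 fell with the high dose, with medians of 0.15 and 0.18. Beside the shares above, a single call in a list of 6 genes is not read as a result about the list. ZFP36 (tristetraprolin), which promotes the decay of such transcripts, fell in KKU-100, with -1.03 and -0.84. Of 5 proteases that act on chemokines, all were tested in HuccT1 and 4 in KKU-100. CTSC was the only call, lower in HuccT1 at the high dose, where 6.44% of all genes were lower. ADAM10 and ADAM17 stayed within the cutoff.

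The genes most like CXCL8 and CXCL10 were sought among the 12033 that passed the filter in both lines, by the root mean square difference of the 4 log2 fold changes. NFKBIZ, a nuclear member of the NF-kB inhibitor family, was nearest to CXCL8 at 0.21, with log2 fold changes of -0.02 and 0.41 in HuccT1, against -2.84 and -0.34 in KKU-100. PTGS2 (cyclooxygenase-2) followed at 0.54, and then ETS1 at 0.61, ZNF670 at 0.64 and MARCHF3 at 0.65. Nearest to CXCL10 were ZHX2 at 0.25, ARIH2OS at 0.30 and CCDC15, RWDD2B and USP30 at 0.31 each. The likeness rests on 4 values that share a solvent array in pairs.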

How the data were processed

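RNA of the 6 samples was measured on Affymetrix expression arrays. Signal intensities were deposited on a linear scale, which the authors made with MAS5 per the submitters' processing notes (version not given in the sources used here), and the study's methods name log2 values in GeneSpring. Groups came from the sample labels. Signals were, after removal of 62 control probe sets, log2 transformed without further scaling. Of 54613 probe sets, 41091 carried 1 gene symbol in the array annotation, 1801 several and 11721 none. Symbols were brought up to date through the Entrez identifiers of RefSeq.

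Doses were compared with solvent in the same line at 1.5-fold among genes past the level filter (mean log2 signal of the line at or above the 50th percentile). limma 3.58.1 in R 4.3.3 (lmFit, eBayes with a trend; line and treatment as terms; 2 residual and 3.41 prior degrees of freedom) was applied to probe sets past that filter over all arrays, with Benjamini-Hochberg adjustment at 0.05, and was tested on simulated data. The number of arrays limits the precision. Other steps used Python 3.11.15, numpy 2.4.6, pandas 2.3.3 and matplotlib 3.10.9.

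Named were all 10 chemokines. From each list of other genes, the text names those that both doses moved past 1.5-fold in 1 direction in a line, at most the 4 of largest high-dose change, and for CXCL8 and CXCL10 the 5 genes of most similar fold changes. The members and lists were chosen with earlier results of these data known. Alternatives were quantile normalization, centring on the array median, the median over probe sets, flooring at the 20th percentile, omission of the level filter or its move to the 60th percentile, leaving out _x_at and _s_at probe sets, a 2-fold cutoff, eBayes without a trend or robust, and leaving out each array. Promoters were searched on both strands over 250 bases before the start in RefSeq's GRCh38.p14. A planned search of protein sequences was not made.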

Additional observations from a re-analysis of the deposited data

Results flagged for a closer look

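CCL20 and NFKBIE moved past 1.5-fold in opposite directions in the lines at the low dose. For CCL20 the log2 fold change was 0.65 in HuccT1 and -0.86 in KKU-100, a difference of -1.51. For NFKBIE it was 0.66 in HuccT1 and -1.18 in KKU-100, a difference of -1.83. Each value compares 1 array with 1, and the difference was not tested.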

How the results depend on the processing

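Log2 fold changes of the chemokines were recomputed under the alternatives, 272 values in all. Omitting or moving the level filter leaves a fold change as it is, so those settings could not alter it. Of the values that had been called, 0 changed sign. Values within the cutoff could change sign, as CXCL2 in HuccT1 at the low dose did, from -0.20 to 0.29 with the median over probe sets. The chemokines called higher in HuccT1 at the high dose numbered 1, but 2 with no level filter and 0 with a filter at the 60th percentile. In HuccT1 at the low dose 3 were higher, but 1 at a 2-fold cutoff. In KKU-100 at the low dose 2 were higher, but 1 without _x_at and _s_at probe sets and 0 at a 2-fold cutoff, and 3 were lower, but 1 at a 2-fold cutoff. Without _x_at and _s_at probe sets CXCL8 and CCL2 have no probe set here, so their changes could not be recomputed. Leaving out 1 array at a time, limma called from 0 to 1548 probe sets for the low dose, 0 to 582 for the high dose, 0 to 157 for high against low dose and 9183 to 14686 for the lines. The counts above 0 for the doses came without the HuccT1 solvent array (1548, 423 and 143) or without the KKU-100 solvent array (2, 582 and 157), in fits with 1 residual degree of freedom, and the cause was not tested. Without the low-dose array, the lines differed at 9183 probe sets (HuccT1 left out) or 9213 (KKU-100 left out). For CXCL8 the difference between the lines also missed the threshold without a trend in eBayes (adjusted p = 0.0585). The lone array of a condition is assumed to vary like the others.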
